A study of Homo sapiens with 4 samples.

Results

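Antisense long non-coding RNA (lncRNA) genes, each named after the gene it lies beside or across, were followed through mineralization of human osteoblasts together with those sense genes. An antisense gene was taken as any lncRNA symbol that ends in -AS, with or without a number, which gave 409 of the 3214 lncRNA symbols and 864 of the 4583 lncRNA transcripts. The symbol left after that ending was removed was listed among the mRNAs for 397 of them, which named 386 different sense genes. The other 12 had no sense gene in the mRNA list, among them 7 named after HOX clusters rather than after a gene (HOXA-AS2, HOXA-AS3, HOXB-AS1, HOXB-AS4, HOXC-AS2, HOXC-AS3 and HOXD-AS2).

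The cells were hFOB 1.19, a human fetal osteoblast line made by transfection with a temperature-sensitive SV40 large T antigen, which divides at a permissive temperature and differentiates when the temperature is raised. Day 0 was the control, and cells undergoing mineralization were taken on days 3, 6 and 9, with 1 RNA sequencing library per time point. All 4 libraries came from this single line. With 1 library per time point, time in the mineralizing condition and any other difference between 1 library and the next cannot be told apart. The paper's methods give a higher temperature for mineralization than for routine culture, so ratios to day 0 also span that change. Without replicates no test between days was possible, and every fold below compares libraries and has no replicate check.

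An antisense transcript is copied from the strand opposite to another gene. It may start near that gene's promoter and run away from it, in a head-to-head arrangement, or it may run through part of the gene. Some antisense RNAs are known to act on the chromatin or the RNA of the gene they cross, while others are known mainly as hosts of small nucleolar RNAs or as RNAs that bind proteins and miRNAs elsewhere in the cell.

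Levels were given as FPKM, which are fragments scaled by transcript length and by the mapped total of the library, summed over the transcripts of each symbol. A change was expressed as log2((FPKM on the day + 1)/(FPKM on day 0 + 1)), so that changes of weakly expressed genes are understated. A gene was called higher or lower when this ratio was at least 1 or at most -1, a 2-fold limit, among genes with at least 1 FPKM in any library. By this rule a gene under 1 FPKM on day 0 could not be called lower. A gene that reached 1 FPKM on day 0 alone could not be called higher. Of the 409 antisense genes 320 reached that level and 89 did not, and 286 pairs had both genes above it. The deposited lncRNA list was already restricted to expressed transcripts, since 4566 of its 4583 transcripts reached 0.5 FPKM in some library. The study states total reads per library, which are not used here, and the number behind each FPKM value was not given, so no counting error is stated. The library kit keeps strand, but whether the FPKM were counted by strand was not given in the sources used here, so reads of an antisense gene and of a sense gene that it crosses may not have been kept apart.

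The libraries carried high levels of the osteoblast matrix genes COL1A1 (776.8 to 1974 FPKM) and SPARC (1113 to 1469 FPKM), while the osteoblast transcription factor RUNX2 had 7.37, 26.2, 19.3 and 18.2 FPKM, beside medians over all mRNA genes of 14.2, 13.4, 13.5 and 13.5 FPKM. ALPL, the alkaline phosphatase of mineralizing cells, had 0.294, 4.32, 4.35 and 4.18 FPKM, and SPP1, osteopontin, had 0.794, 1.89, 5.14 and 7.45 FPKM. The osteoblast lineage markers SP7, BGLAP and IBSP stayed under 0.8 FPKM in all 4 libraries. So did the blood, endothelial, epithelial and liver markers PTPRC, PECAM1, EPCAM and ALB.

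Divergent gene pairs are shown first by the sequence between their starts. RefSeq promoter windows (GRCh38.p14, 250 bases before to 50 after a start) placed both genes of 262 members. Of these pairs 144 had starts on opposite strands within 1000 bases of each other. These are called head to head here, whether or not their 5′ ends overlap. In the 112 of them with both genes at 1 FPKM or more in some library, the median distance between starts was 177 bases. In 107 of the 144 the 300-base windows of the 2 genes shared bases, with a median of 211 shared bases. The windows of 4 sense genes are printed 5′ to 3′ on the sense gene's strand, with the bases shared with the antisense gene's window in capitals, because these pairs show the 4 patterns described below. GLYCTK fell together with its antisense gene, ZNF561 stayed within the limit while its antisense gene rose, TRAM2 stayed within it while its antisense gene fell, and LIPE fell while its antisense gene rose.
GLYCTK: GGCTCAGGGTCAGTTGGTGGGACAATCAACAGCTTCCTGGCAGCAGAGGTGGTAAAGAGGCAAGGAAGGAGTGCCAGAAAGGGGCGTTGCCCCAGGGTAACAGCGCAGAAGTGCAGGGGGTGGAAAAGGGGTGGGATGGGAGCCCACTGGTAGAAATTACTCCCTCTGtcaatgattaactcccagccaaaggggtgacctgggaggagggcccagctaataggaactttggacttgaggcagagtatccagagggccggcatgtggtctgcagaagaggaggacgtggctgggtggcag
ZNF561: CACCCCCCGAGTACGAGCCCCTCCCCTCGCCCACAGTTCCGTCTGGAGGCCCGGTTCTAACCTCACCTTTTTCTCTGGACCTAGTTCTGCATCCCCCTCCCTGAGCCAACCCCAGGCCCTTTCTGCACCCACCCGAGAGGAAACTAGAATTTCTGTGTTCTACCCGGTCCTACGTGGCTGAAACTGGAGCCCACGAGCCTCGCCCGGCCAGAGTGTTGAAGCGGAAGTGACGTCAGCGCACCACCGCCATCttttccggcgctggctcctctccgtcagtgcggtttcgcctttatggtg
TRAM2: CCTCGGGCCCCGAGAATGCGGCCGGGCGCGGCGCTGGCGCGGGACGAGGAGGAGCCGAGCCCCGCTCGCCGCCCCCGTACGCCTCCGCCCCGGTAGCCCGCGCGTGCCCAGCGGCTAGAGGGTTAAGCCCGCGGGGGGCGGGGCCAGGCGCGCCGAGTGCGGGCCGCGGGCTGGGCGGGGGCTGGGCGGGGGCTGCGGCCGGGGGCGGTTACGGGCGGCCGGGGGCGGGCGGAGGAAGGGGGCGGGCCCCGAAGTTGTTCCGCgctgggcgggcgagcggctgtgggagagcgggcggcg
LIPE: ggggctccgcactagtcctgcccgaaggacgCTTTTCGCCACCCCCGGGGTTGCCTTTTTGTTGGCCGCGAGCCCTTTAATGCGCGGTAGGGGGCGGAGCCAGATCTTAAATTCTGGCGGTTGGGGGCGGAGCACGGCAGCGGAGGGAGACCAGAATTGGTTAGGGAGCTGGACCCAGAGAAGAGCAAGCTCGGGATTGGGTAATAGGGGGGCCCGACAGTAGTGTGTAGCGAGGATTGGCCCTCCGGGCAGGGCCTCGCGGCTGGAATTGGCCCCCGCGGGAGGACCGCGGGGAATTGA
The GLYCTK window lies at chr3:52289816-52290115 on the plus strand and shared 168 bases with the window of GLYCTK-AS1. The ZNF561 window, at chr19:9621183-9621482 on the minus strand, shared 251 bases with that of ZNF561-AS1. The TRAM2 window, at chr6:52577011-52577310 on the minus strand, shared 263 bases with that of TRAM2-AS1. The LIPE window, at chr19:42423536-42423835 on the minus strand, belongs to 1 of the listed starts of that gene and shared 269 bases with that of LIPE-AS1.

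These 4 windows differ widely in composition. The letters of a GC box (GGGCGG) were searched on both strands, as were those of the CCAAT box named after them. The TATA box was searched in the same way by its letters (TATAAA), and none of these motifs contains another. TRAM2 has 51 CpG dinucleotides and 11 GC boxes, whereas GLYCTK has 4 CpG dinucleotides and no GC box. LIPE has 24 CpG dinucleotides, 2 GC boxes and 4 CCAAT boxes, and ZNF561 has 20 CpG dinucleotides with neither box. None of the 4 windows holds a TATA box. Over the sense windows of the 107 head-to-head pairs with shared bases, 73.8% held the GC box, 34.6% the CCAAT box and 5.61% the TATA box, against 45.0%, 34.6% and 11.5% of all 35116 RefSeq windows. Their median number of CpG dinucleotides was 29, against 14 over all windows.

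Most antisense genes were far less abundant than their sense genes. In the 286 pairs the antisense gene was the lower one in 250, 249, 244 and 247 pairs of the day 0, 3, 6 and 9 libraries. The median antisense to sense ratio of FPKM, over pairs with both genes above 0, was 0.137, 0.166, 0.144 and 0.139 in the same order. Levels of antisense and sense gene were not ordered alike, with rank correlations across the 286 pairs of 0.14, -0.05, -0.03 and -0.08 on the 4 days. Among all 409 antisense genes, 24, 20, 10 and 22 were listed at 0 in the 4 libraries.

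**Figure D1:**
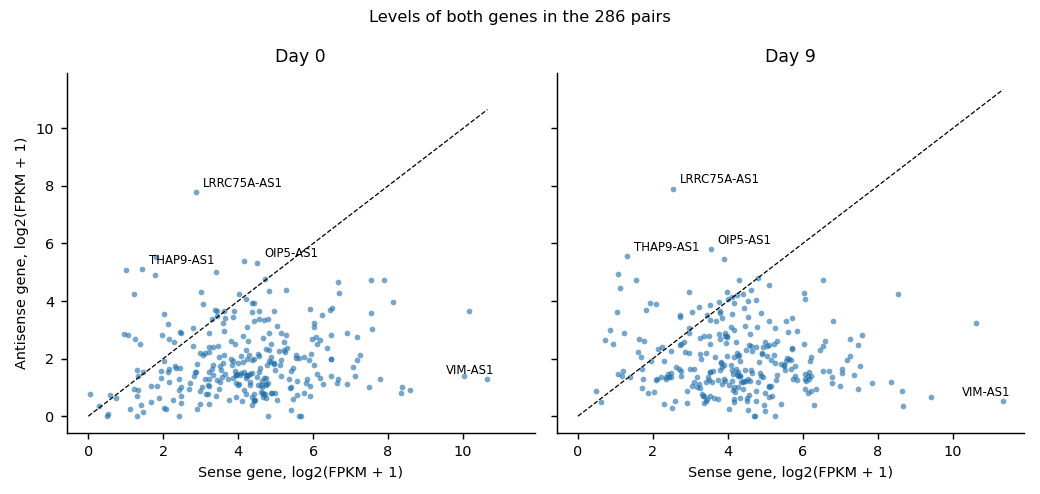
Levels of the antisense gene (vertical axis) and the sense gene (horizontal axis) as log2(FPKM + 1) in the 286 pairs, 1 point per pair, on day 0 (left) and day 9 (right), with a dashed line at equal levels. Most points lie below the line (250 of 286 on day 0 and 247 on day 9), and LRRC75A-AS1 is the highest point on both days.

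A few antisense genes reversed that order. LRRC75A-AS1, a host gene of small nucleolar RNAs with 20 listed transcripts, had the highest mean level, with 219.8, 246, 242 and 238 FPKM on days 0, 3, 6 and 9, against 6.31, 6.07, 6.49 and 4.82 FPKM for LRRC75A. FGD5-AS1 stood at 49.6, 56.5, 61.3 and 60.4 FPKM, while FGD5, an exchange factor known from endothelial cells, stayed between 0.172 and 0.286 FPKM. THAP9-AS1 had 33.5, 41.5, 45.7 and 46.0 FPKM, and THAP9 had 1.70, 1.97, 1.68 and 1.48 FPKM. In these 3 pairs both genes stayed within the 2-fold limit on every day.

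FOXD1-AS1 was also level, between 39.4 and 44.1 FPKM, with the forkhead gene FOXD1 between 13.9 and 16.9 FPKM. NUTM2A-AS1 went from 45.4 FPKM on day 0 to 29.6 FPKM on day 9, a log2 ratio of -0.60, and is uncertain because the NUTM2 family has near-identical copies. OIP5-AS1, the vertebrate-conserved lncRNA also called Cyrano, had 39.4, 56.5, 51.3 and 54.5 FPKM, within the limit. OIP5, which helps load the centromeric histone, had 21.6 FPKM on day 0 and 9.37, 9.92 and 10.6 FPKM afterwards, so that its log2 ratios of -1.13, -1.05 and -0.96 crossed the limit on days 3 and 6.

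Antisense genes moved about as often as other lncRNA genes. On day 3, 39 of the 320 (12.2%) were higher and 17 (5.31%) lower than on day 0, and the shares among all 2357 lncRNA genes above the same level were 14.3% and 5.35%. On day 6, 45 (14.1%) were higher and 18 (5.63%) lower, beside 15.5% and 5.81% of all lncRNA genes. On day 9, 40 (12.5%) were higher and 25 (7.81%) lower, beside 13.4% and 6.79%. None of these shares is far from its background.

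All lncRNA genes together shifted upward on the log2 scale by a median of 0.21 on days 3 and 6 and of 0.03 on day 9. The antisense genes had medians of 0.17, 0.13 and 0.01, slightly below that shift. When both lists were rescaled so that their median ratio was 0 on each day, day 3 had 25 higher and 24 lower antisense genes, day 6 had 27 and 28, and day 9 had 34 and 26. Rescaling multiplied all lncRNA values by 0.777, 0.773 and 0.935 on days 3, 6 and 9. By construction this could only reduce the higher antisense genes and add to the lower ones, so no conclusion is drawn from it. The factors for the mRNA list were 1.06, 1.07 and 1.07, in the other direction. Shares of all lncRNA genes after rescaling were not computed.

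Among sense genes the share that was higher stood above that of all mRNA genes on each day, by the most on day 3. Of the 350 that reached 1 FPKM, 47 (13.4%) were higher and 15 (4.29%) lower on day 3, where 8.13% and 5.30% of all 12859 mRNA genes were. On day 6 there were 41 higher (11.7%) and 18 lower (5.14%), beside 9.01% and 6.42%. On day 9 there were 37 higher (10.6%) and 18 lower (5.14%), beside 9.60% and 6.52%, where the share of higher genes was within about 1 percentage point of the background. Their median log2 ratios were 0.02, -0.02 and -0.08, and those of all mRNA genes were -0.08, -0.08 and -0.09. Sense genes enter here only through an antisense gene in the lncRNA list, which was already restricted to expressed transcripts. All mRNA genes carry no such condition, and its part in the difference was not tested. No test of these shares was made.

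Past the limit in 1 direction on all 3 days were 34 antisense genes, 23 higher and 11 lower, and 226 of the 320 did not cross it on any day. For all lncRNA genes the shares higher and lower on all 3 days were 6.53% and 2.42%, and for the antisense genes 7.19% and 3.44%. Day 0 serves all 3 comparisons, and a single unusual value on day 0 would place a gene in this group.

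**Figure D2:**
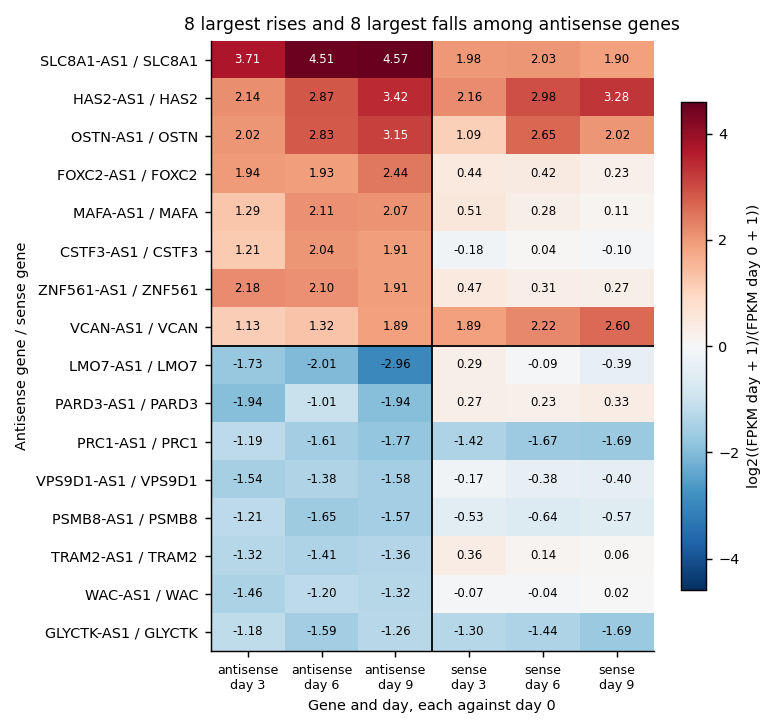
Log2 ratios against day 0 for the 8 strongest rises and 8 strongest falls by day 9 of antisense genes past the 2-fold limit on all 3 days (left 3 columns), and for their sense genes (right 3 columns), red for higher and blue for lower. SLC8A1, HAS2, OSTN and VCAN are red on both sides and PRC1 and GLYCTK blue on both sides, while the sense genes of the other 10 are pale.

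The largest rise was that of SLC8A1-AS1, whose sense gene encodes the plasma membrane sodium-calcium exchanger. SLC8A1-AS1 had 0.183 FPKM on day 0 and 14.5, 25.9 and 27.1 FPKM on days 3, 6 and 9, log2 ratios of 3.71, 4.51 and 4.57. SLC8A1 had 6.49, 28.5, 29.5 and 27.0 FPKM, log2 ratios of 1.98, 2.03 and 1.90. Both genes were low on day 0 and high on the 3 later days. The antisense gene rose more, so that its level went from 0.0282 of the sense level on day 0 to 0.509, 0.877 and 1.01 of it. Of its 8 listed transcripts 7 were at 0 on day 0, and ENST00000444629.5 carried the most on later days, with 6.96, 14.9 and 14.6 FPKM.

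HAS2-AS1 and HAS2, the synthase of the matrix polysaccharide hyaluronan, followed each other closely. HAS2-AS1 had 0.567, 5.89, 10.5 and 15.7 FPKM, log2 ratios of 2.14, 2.87 and 3.42. HAS2 had 0.660, 6.44, 12.1 and 15.1 FPKM, log2 ratios of 2.16, 2.98 and 3.28. Both increased from each time point to the next, and the antisense to sense ratio stayed between 0.858 and 1.04. The RefSeq spans of HAS2-AS1 and HAS2 overlap, and the part of reads counted for both genes was not tested.

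OSTN-AS1 rose with OSTN, which encodes osteocrin, a peptide secreted by osteoblasts and muscle. OSTN-AS1 had 0.702, 5.91, 11.1 and 14.1 FPKM, log2 ratios of 2.02, 2.83 and 3.15. OSTN was almost undetected on day 0, at 0.0377 FPKM, and had 1.21, 5.50 and 3.21 FPKM afterwards, with a day 3 ratio of 1.09 that was 0.71 for its most abundant transcript alone. The antisense RNA was the higher of the pair in every library, and on day 9 it stood above its day 6 level while OSTN stood below.

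VCAN-AS1 rose with VCAN, the gene of the large matrix proteoglycan versican. VCAN-AS1 had 1.30, 4.02, 4.73 and 7.54 FPKM, log2 ratios of 1.13, 1.32 and 1.89, of which that of day 3 was 0.84 after rescaling. VCAN had 3.48, 15.7, 19.8 and 26.2 FPKM, log2 ratios of 1.89, 2.22 and 2.60. Here the sense gene changed more than the antisense gene.

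For the other large rises the sense gene stayed within the limit. ZNF561-AS1, beside a zinc finger gene, had 2.37, 14.3, 13.4 and 11.7 FPKM, log2 ratios of 2.18, 2.10 and 1.91, and ZNF561 had 10.4, 14.7, 13.1 and 12.8 FPKM. These 2 genes start head to head and share most of the window printed above, but only the antisense gene crossed the limit. FOXC2-AS1 was listed at 0 on day 0 and at 2.84, 2.81 and 4.42 FPKM later, while the forkhead gene FOXC2 had between 27.0 and 36.9 FPKM.

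CSTF3-AS1 was likewise listed at 0 on day 0 and had 1.31, 3.10 and 2.76 FPKM afterwards, with CSTF3, a subunit of the mRNA cleavage machinery, between 43.0 and 49.97 FPKM. MAFA-AS1 was listed at 0 and then at 1.45, 3.33 and 3.19 FPKM, and its sense gene MAFA, a transcription factor known from pancreatic beta cells, did not reach 1 FPKM. An exact 0 may stand for an estimate that failed, so the log2 ratios that placed these 3 genes among the rises rest on the pseudocount and no linear fold is given for them. With its most abundant transcript alone, CSTF3-AS1 was within the limit on day 3, at 0.97.

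**Figure D3:**
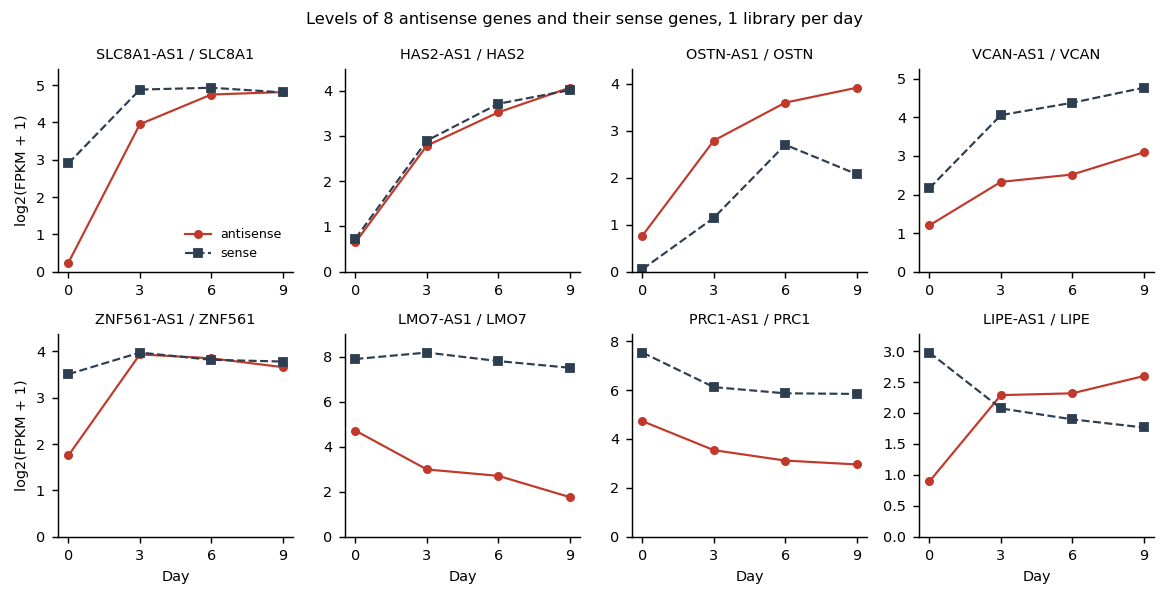
Levels, as log2(FPKM + 1), of 8 antisense genes (red circles, solid line) and their sense genes (dark squares, dashed line) on days 0, 3, 6 and 9, with 1 library per point and a separate vertical scale in each panel. HAS2-AS1 and HAS2 nearly coincide, ZNF561-AS1 reaches the level of a nearly flat ZNF561, LMO7-AS1 falls under a nearly flat LMO7, and LIPE-AS1 crosses LIPE.

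Among the falls, LMO7-AS1 decreased the most. It had 25.3 FPKM on day 0 and 6.92, 5.50 and 2.38 FPKM on days 3, 6 and 9, log2 ratios of -1.73, -2.01 and -2.96. LMO7, a LIM domain protein of cell junctions and the nucleus, had 238, 291, 223 and 182 FPKM and stayed within the limit. The antisense to sense ratio went from 0.106 to 0.0131.

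WAC-AS1 and TRAM2-AS1 also fell beside steady sense genes. WAC-AS1 had 12.5, 3.92, 4.91 and 4.42 FPKM, while WAC, an adaptor protein gene involved in histone ubiquitination, stayed between 85.9 and 91.2 FPKM. TRAM2-AS1 had 5.80, 1.72, 1.56 and 1.64 FPKM, while TRAM2, a protein of the endoplasmic reticulum linked to type I collagen synthesis, stayed between 67.0 and 86.0 FPKM. Both antisense genes were high on day 0 and level afterwards, although the most abundant transcript of TRAM2-AS1 alone gave -0.96 on day 9, and both start head to head with their sense gene.

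PSMB8-AS1 had 10.4, 3.91, 2.63 and 2.83 FPKM, and PSMB8, an immunoproteasome subunit, had 74.9, 51.7, 47.6 and 50.2 FPKM with log2 ratios of -0.53, -0.64 and -0.57. VPS9D1-AS1 had 7.31, 1.85, 2.19 and 1.79 FPKM, and VPS9D1 had 5.98, 5.19, 4.38 and 4.28 FPKM. PARD3-AS1, listed at 0 in the day 3 and day 9 libraries, had 2.85 FPKM on day 0 and 0.914 FPKM on day 6, while the cell polarity gene PARD3 stayed between 19.7 and 24.98 FPKM. In these 3 pairs the sense gene stayed within the limit. PARD3-AS1 reached 1 FPKM on day 0 alone, so it could only be called lower. It crossed the limit on days 3 and 9 through a listed 0 and on day 6 at -1.01. With the most abundant transcript alone PSMB8-AS1 was at -0.88 on day 3.

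Of the 8 largest falls, 2 went with a fall of the sense gene. PRC1-AS1 had 25.5, 10.6, 7.64 and 6.75 FPKM, log2 ratios of -1.19, -1.61 and -1.77. PRC1, which bundles microtubules at the central spindle during cell division, had 185, 68.6, 57.4 and 56.4 FPKM, log2 ratios of -1.42, -1.67 and -1.69. The antisense to sense ratio was 0.138, 0.155, 0.133 and 0.1197, close to constant. The spans of PRC1-AS1 and PRC1 overlap in RefSeq, and the part of reads counted for both genes was not tested. GLYCTK-AS1 had 2.35, 0.479, 0.113 and 0.394 FPKM, and GLYCTK, glycerate kinase, had 3.99, 1.02, 0.845 and 0.546 FPKM. GLYCTK-AS1 reached 1 FPKM on day 0 alone, so it could only be called lower.

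Across the 286 pairs the log2 ratios of antisense and sense gene went together in part. Against day 0, the rank correlations of days 3, 6 and 9 were 0.43, 0.45 and 0.41, as a description of pairs that share the same libraries. The comparisons that leave out day 0 gave 0.23 for day 6 against day 3 and 0.09 for day 9 against day 6. In those later steps few genes moved, with 4 antisense genes of the pairs past the limit between days 3 and 6 and 8 between days 6 and 9.

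By counts, the sense gene was higher in 19 of the 37 pairs (51.4%) whose antisense gene was higher on day 3, in 17 of 42 (40.5%) on day 6 and in 13 of 35 (37.1%) on day 9. Where the antisense gene stayed within the limit the sense gene was higher in 22 of 232 pairs (9.48%), 19 of 226 (8.41%) and 18 of 227 (7.93%). The sense gene was lower in 2 of the 17 pairs (11.8%) with a lower antisense gene on day 3, in 3 of 18 (16.7%) on day 6 and in 4 of 24 (16.7%) on day 9, and in 3.88%, 4.87% and 3.96% of the pairs whose antisense gene stayed within the limit. Even so, most sense genes of fallen antisense genes stayed within the limit.

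On day 9 both genes were past the limit in 20 pairs, 17 in the same direction and 3 in opposite directions. Besides those above, MFI2-AS1 had 4.98, 12.9, 14.3 and 14.7 FPKM and MFI2, the iron-binding melanotransferrin, 3.88, 10.7, 12.4 and 12.5 FPKM. CERS6-AS1 had 6.58, 17.1, 19.2 and 18.7 FPKM and the ceramide synthase gene CERS6 4.46, 12.9, 14.4 and 14.8 FPKM. In both pairs the antisense to sense ratio changed little, from 1.28 to 1.18 for MFI2 and from 1.47 to 1.26 for CERS6. The RefSeq spans overlap in both, and the part of reads counted for both genes of a pair was not tested. With the most abundant transcript alone, MFI2-AS1 had log2 ratios of 0.41 on day 3 and 0.71 on day 6, within the limit, and after rescaling the day 3 ratios of MFI2-AS1 and CERS6-AS1 were 0.89 and 0.92.

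CYP1B1-AS1 fell with CYP1B1, a cytochrome P450 of steroid and xenobiotic metabolism. CYP1B1-AS1 had 3.12, 1.29, 0.381 and 0.328 FPKM, log2 ratios of -0.85, -1.58 and -1.63. CYP1B1 had 28.4, 4.19, 2.88 and 3.91 FPKM, log2 ratios of -2.50, -2.92 and -2.58. The sense gene was past the limit on all 3 days. The day 3 ratio of CYP1B1-AS1 depended on the setting and was -1.39 with the most abundant transcript alone, -1.21 with a pseudocount of 0.1 and -1.04 after rescaling.

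**Figure D4:**
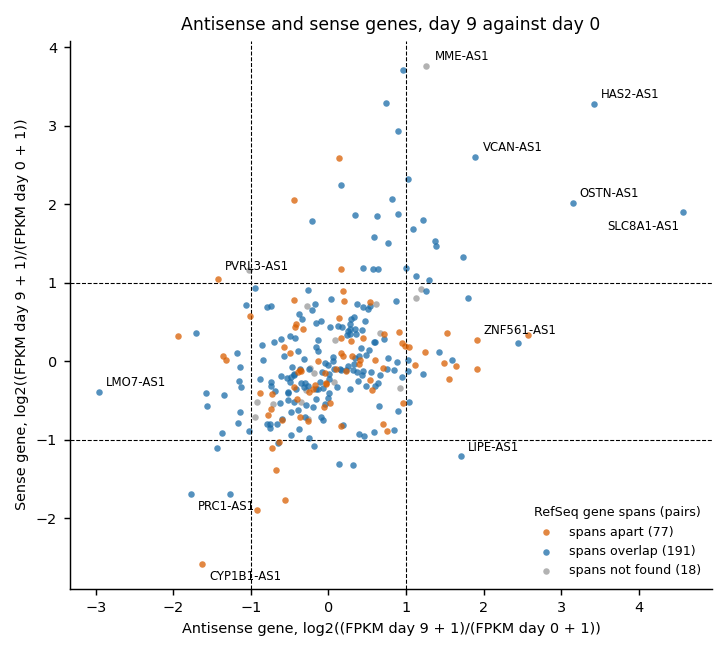
Log2 ratios of day 9 against day 0 for the antisense gene (horizontal axis) and the sense gene (vertical axis) of the 286 pairs, coloured by whether the RefSeq spans of the 2 genes overlap, with dashed lines at the 2-fold limits. The upper right field holds 13 pairs and the lower left field 4, while LIPE-AS1, PVRL3-AS1 and ARMCX3-AS1 lie in the opposite fields.

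Pairs past the limit in opposite directions were few (1, 1 and 3 on the 3 days) and involved 4 antisense genes. LIPE-AS1 had 0.856, 3.88, 3.98 and 5.05 FPKM, log2 ratios of 1.40, 1.43 and 1.70. LIPE, the hormone-sensitive lipase, had 6.87, 3.21, 2.72 and 2.40 FPKM, log2 ratios of -0.90, -1.08 and -1.21. With the most abundant transcript alone LIPE was at -0.84 on day 6, which leaves no opposite pair on that day. The antisense to sense ratio went from 0.125 on day 0 to 2.11 on day 9, and each gene was on the far side of its day 0 level in all 3 later libraries.

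PVRL3-AS1 had 1.69 FPKM on day 0, 0.431 FPKM on day 3 and a listed 0 on both later days, while PVRL3, the adhesion molecule nectin-3, had 17.5, 36.4, 33.5 and 37.0 FPKM. The most abundant transcript of PVRL3 alone gave 0.93 on day 9, within the limit. ARMCX3-AS1 had 1.71 FPKM, was listed at 0 on day 3, and had 0.943 and 0.332 FPKM on days 6 and 9, while ARMCX3, a mitochondrial protein gene, had 18.1, 36.4, 37.3 and 41.8 FPKM. SEMA3B-AS1 was uneven, with 2.19 FPKM, a listed 0, 1.65 and 4.92 FPKM, beside the secreted semaphorin gene SEMA3B at 4.05, 20.9, 15.4 and 17.5 FPKM. These 3 antisense genes never exceeded 5 FPKM. PVRL3-AS1 and ARMCX3-AS1 reached 1 FPKM on day 0 alone, so they could only be called lower.

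Nearly all shared rises were in pairs whose RefSeq gene spans overlap. Spans overlapped in 191 of the 286 pairs, lay apart in 77 and were not both found in 18. With overlapping spans, the sense gene was higher in 19 of 27 pairs with a higher antisense gene on day 3, in 16 of 28 on day 6 and in 12 of 22 on day 9. With spans apart it was higher in 0 of 8, 0 of 12 and 0 of 10. Whatever the antisense gene did, the sense gene of the overlapping class was higher in 18.3%, 15.7% and 14.1% of pairs on the 3 days, against 6.49%, 3.90% and 5.19% with spans apart.

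The rank correlation of log2 ratios was 0.48, 0.49 and 0.46 on days 3, 6 and 9 with overlapping spans and 0.24, 0.30 and 0.24 with spans apart. In the comparisons that leave out day 0, pairs with spans apart were not below all pairs throughout. They had 0.32 for day 6 against day 3 and 0.05 for day 9 against day 6. Over all 286 pairs these were 0.23 and 0.09. The part in these correlations and counts of reads counted for both genes of a pair was not tested. RefSeq spans are those of GRCh38.p14 and may differ from the gene models behind the FPKM. By promoter windows, the 112 head-to-head pairs had rank correlations of 0.27, 0.33 and 0.33, and both genes were higher in 2 of the 12 with a higher antisense gene on day 3 and in none of 16 on day 6 or 13 on day 9. The 76 other pairs that overlap on opposite strands had 0.47, 0.45 and 0.39, with both genes higher in 6 of 8 on each day. The 91 pairs whose starts could not both be placed had 0.63, 0.63 and 0.61, with both genes higher in 11 of 16, 11 of 17 and 7 of 14. The 7 placed pairs that neither overlap nor start within 1000 bases had -0.50, -0.29 and -0.43. The share of higher sense genes whatever the antisense gene did is not given for these arrangements. Their counts of joint rises therefore cannot be compared with each other.

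**Figure D5:**
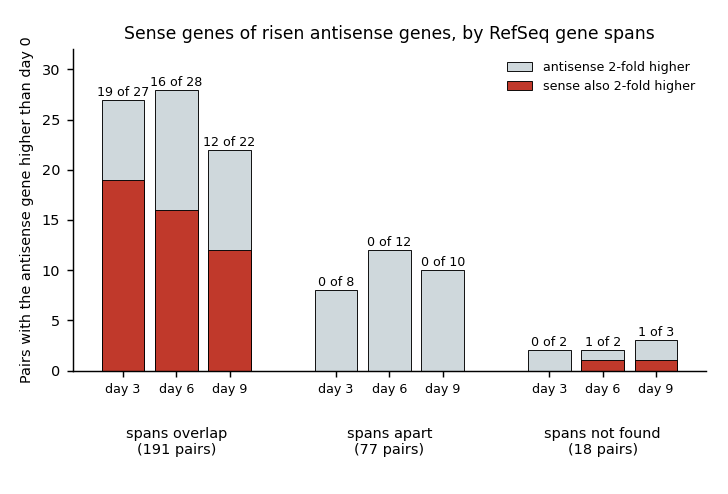
Number of pairs with the antisense gene at least 2-fold higher than on day 0 (grey bars) and with the sense gene higher as well (red bars), by day and by whether the RefSeq spans of the 2 genes overlap. With overlapping spans 19 of 27, 16 of 28 and 12 of 22 sense genes were also higher, and with spans apart none of 8, 12 and 10.

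Grouped by the sense gene's symbol, the antisense genes of signalling genes held 16 above 1 FPKM, of which 3, 3 and 2 were higher and 2, 2 and 3 lower on days 3, 6 and 9, while 4 of their 15 paired sense genes were higher on each day. The higher ones are 18.8%, 18.8% and 12.5% of the antisense genes, beside 14.3%, 15.5% and 13.4% of all lncRNA genes. The lower ones are 12.5%, 12.5% and 18.8% of them, beside 5.35%, 5.81% and 6.79% of all lncRNA genes. The higher sense genes are 26.7%, beside 8.13%, 9.01% and 9.60% of all mRNA genes. All groups are small and were not tested. GAS6, a ligand of the TAM receptor tyrosine kinases, had 67.3, 172, 168 and 153 FPKM. It has 2 antisense genes, and GAS6-AS1, whose span overlaps that of GAS6, had 1.76, 7.14, 6.97 and 3.28 FPKM, log2 ratios of 1.56, 1.53 and 0.63. GAS6-AS2, which starts head to head with it, had 4.71, 5.70, 7.01 and 5.39 FPKM and stayed within the limit. TGFB2, a growth factor of bone matrix, had 33.8, 71.2, 52.0 and 55.1 FPKM, with TGFB2-AS1 at most 0.582 FPKM.

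In the same group, DLG1-AS1 did not reach 1 FPKM, between 0.227 and 0.837 FPKM, while the scaffold gene DLG1 had 75.4, 124, 151 and 131 FPKM. The 2 most abundant antisense genes of the group were MAPKAPK5-AS1, at 11.5, 6.81, 9.56 and 10.96 FPKM, and EPHA5-AS1, at 9.67, 9.18, 6.40 and 3.74 FPKM. Outside the group, BDNF-AS had 5.07, 15.7, 10.3 and 6.16 FPKM and the neurotrophin gene BDNF 18.1, 38.7, 25.7 and 23.1 FPKM. Both BDNF genes peaked on day 3, with log2 ratios of 1.47 and 1.05, and were within the limit on days 6 and 9. The most abundant transcript alone gave 0.85 for BDNF on day 3 and 1.14 for BDNF-AS on day 6, and a pseudocount of 0.1 gave 1.01 for BDNF-AS on day 6.

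The symbol group of matrix, adhesion and cytoskeleton genes held 14 antisense genes above 1 FPKM, of which 3, 3 and 1 were higher and none lower, and 3 of 12 paired sense genes were higher on each day. The shares higher were 21.4%, 21.4% and 7.14% of the antisense genes and 25% of the sense genes, against the same backgrounds. Its pattern also took in a few genes of other kinds, such as TRIM52, STARD4 and STARD7. LOXL1-AS1, beside a lysyl oxidase gene that crosslinks elastin and collagen, had 18.5, 34.3, 27.2 and 25.5 FPKM, and LOXL1 had 103, 158, 122 and 91.1 FPKM, both within the limit. TRIM52-AS1 had between 9.52 and 14.9 FPKM. VIM-AS1 was at most 1.42 FPKM beside the intermediate filament gene VIM at 1603, 1833, 2398 and 2599 FPKM.

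Of 7 antisense genes of cell cycle and DNA repair genes, 1 was lower on each day, PRC1-AS1, and 1 was higher on day 9 alone, CDC37L1-AS1, named after its value was seen (0.704, 0.225, 0.856 and 9.13 FPKM), whose ratio on day 9 was 2.57. In a group of 7, 1 gene is 14.3%. Of all lncRNA genes 5.35%, 5.81% and 6.79% were lower on days 3, 6 and 9, and 13.4% higher on day 9. The sense genes of these 7 had medians of -0.62, -0.41 and -0.38 on the log2 scale, below the -0.08, -0.08 and -0.09 of all mRNA genes. CDKN2B-AS1, also called ANRIL, had 3.73, 5.37, 6.87 and 5.84 FPKM and stayed within the limit. CDKN2B, an inhibitor of the cyclin D kinases, had 8.34, 22.3, 16.5 and 14.2 FPKM, past the limit on day 3 with a log2 ratio of 1.32.

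The group of developmental transcription factors held 19 antisense genes above 1 FPKM, of which 2, 3 and 1 were higher and none lower, and 1, 0 and 0 of their 12 paired sense genes were higher. The antisense shares higher were 10.5%, 15.8% and 5.26%, beside 14.3%, 15.5% and 13.4% of all lncRNA genes. The sense shares higher were 8.33%, 0% and 0%, beside 8.13%, 9.01% and 9.60% of all mRNA genes. NR2F1-AS1 had 8.29, 8.90, 11.3 and 12.0 FPKM, above NR2F1, a nuclear receptor gene, at 3.40, 2.76, 2.41 and 2.53 FPKM. ZEB1-AS1 had 2.43 to 3.48 FPKM and ZEB1 13.2 to 19.5 FPKM, ZEB2-AS1 was at most 0.655 FPKM with 2 libraries listed at 0, and WT1-AS was at most 0.622 FPKM and listed at 0 in the other 3 libraries. FOXD2-AS1 had 1.12, 2.12, 2.32 and 2.61 FPKM with FOXD2 under 1 FPKM. HOXA-AS2 had 0.297 to 0.756 FPKM and HOXA-AS3 1.88 to 2.86 FPKM.

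The zinc finger group held 14 antisense genes above 1 FPKM, with 2 higher on each day (14.3%) and 1 lower on day 9 (7.14%). Of all lncRNA genes 14.3%, 15.5% and 13.4% were higher on days 3, 6 and 9, and 6.79% lower on day 9. The group's most abundant members were ZNF561-AS1 and ZNF436-AS1. The latter had 3.41, 9.15, 8.84 and 6.47 FPKM beside ZNF436 at 6.42 to 7.51 FPKM. The chaperone, hypoxia and stress group held 3, of which 1 was higher on day 6 and none lower. That 1 gene is 33.3% of the group, beside 15.5% of all lncRNA genes. The group's pattern also took in RBM26 and RBMS3, genes of other kinds. DNAJC27-AS1 had 1.91, 2.48, 5.10 and 4.68 FPKM while DNAJC27 had 1.75, 1.05, 1.07 and 0.899 FPKM. HIF1A-AS2 had 2.89, 3.02, 3.01 and 1.25 FPKM, and HIF1A, the oxygen-regulated transcription factor, had 142, 169, 196 and 229 FPKM, with both within the limit.

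Compared with lncRNA genes of other name classes, the antisense genes above 1 FPKM had median levels of 1.99, 2.71, 2.61 and 2.17 FPKM on days 0, 3, 6 and 9, beside 1.49, 1.97, 1.94 and 1.64 FPKM for the 2037 other lncRNA genes. Intergenic genes named LINC with a number, 116 in all, were higher in 18, 27 and 30 cases and lower in 4, 4 and 8 on days 3, 6 and 9, so that on day 9 25.9% were higher against 12.5% of the antisense genes. Intronic genes with names ending in -IT, 42 in all, were higher in 5, 7 and 4 cases and lower in 1, 0 and 1. The shares higher were 15.5%, 23.3% and 25.9% for LINC genes and 11.9%, 16.7% and 9.52% for -IT genes. Among all lncRNA genes they were 14.3%, 15.5% and 13.4%. The shares lower were 3.45%, 3.45% and 6.90% for LINC genes and 2.38%, 0% and 2.38% for -IT genes. Of all lncRNA genes 5.35%, 5.81% and 6.79% were lower. No test of these differences was made.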

How the data were processed

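RNA of hFOB 1.19 cells on days 0, 3, 6 and 9 was sequenced after rRNA removal, with a directional kit, and 1 library was made per time point. The FPKM of lncRNA and mRNA transcripts were deposited by the authors. Their submitters' processing notes name Bowtie 0.12.2 and mm8, a mouse build, although the cells are human. The paper's methods name Bowtie and TopHat, and the program and annotation behind the FPKM, their genome build and their use of strand were not given in the sources used here. The methods also describe RNase R treatment for the mRNA libraries, which degrades linear RNA, and its part in the levels was not tested.

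FPKM were summed per symbol with Python 3.11.15 (pandas 2.3.3, numpy 2.4.6, scipy 1.17.1). Log2 ratios used a pseudocount of 1 FPKM, a limit of 2-fold and a minimum of 1 FPKM in any library. The calling steps were tested on simulated data. The planted changes were well past the limit and only in well expressed genes. That test therefore does not cover calls near the limit or at the low levels of most antisense genes. With 1 library per group no test was made. Positions came from RefSeq tables (GRCh38.p14), which matched 389 of the 409 antisense symbols by symbol or by gene ID, and no coordinates of the authors' files were used.

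Named genes were the 6 with the highest mean FPKM, the 8 strongest rises and 8 strongest falls by day 9 of genes past the limit on all 3 days, the 8 pairs most strongly past it together on day 9, up to 4 opposite pairs, a list of 20 antisense names of which 17 were found, and the 2 most abundant members of each symbol group. The members and lists were chosen with earlier results of these data known. The printed windows were chosen after the values were seen. The authors' comparison tables hold fold changes, p-values and q-values and were not used, nor were 26 further columns of per-sample values. Alternatives were another pseudocount, other minimum levels, the most abundant transcript alone, rescaling, leaving out genes at 0, a 4-fold limit, Pearson correlation and other choices of pairs.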

Additional observations from a re-analysis of the deposited data

How the results depend on the processing

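No paired analysis was possible because no day had a second library. With a pseudocount of 0.1, 71, 81 and 71 antisense genes were higher and 35, 35 and 53 lower on days 3, 6 and 9, and 32 sense genes were lower on day 9, since a smaller pseudocount lets weakly expressed genes cross the limit. With a 4-fold limit, 5, 6 and 6 antisense genes were higher and 1, 1 and 1 lower, and 12, 14 and 12 sense genes were higher and 1, 1 and 1 lower. Shares of all lncRNA and mRNA genes were not computed at these settings, so these counts have no background beside them. Rescaling to a median of 0 gave 25 and 27 higher antisense genes on days 3 and 6, 28 lower on day 6, and median log2 ratios of antisense genes of -0.0829 and -0.0886 on those days, by its own construction. In pairs with spans apart, an alternative chosen after seeing the data, the rank correlations were 0.24, 0.30 and 0.24 on days 3, 6 and 9 against day 0. The other 138 values of counts, medians and correlations stayed within 1.5 times for counts, or within 0.1 for medians and correlations. They cover the minimum levels, the most abundant transcript alone, leaving out genes at 0, Pearson correlation and 1 pair per sense gene. Adding pairs through current gene symbols found 1 more pair, which did not reach 1 FPKM in both genes. Of 669 ratios of named genes that 3 alternatives (the pseudocount, the most abundant transcript of genes with several, and rescaling) could change, 30 came to cross the 2-fold limit and 14 no longer did, and none past the limit changed sign. The reads behind each FPKM value were not given, so what depth limits for single genes could not be stated.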

Other observations

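The lncRNA list also holds 699 genes above 1 FPKM that are annotated as antisense but carry clone or other names without an -AS ending, a class chosen after the data were seen. Day 3 had 81 higher and 34 lower genes of this class, day 6 had 98 and 35, and day 9 had 84 and 34. The shares higher were 11.6%, 14.0% and 12.0%, beside 14.3%, 15.5% and 13.4% of all lncRNA genes. The shares lower were 4.86%, 5.01% and 4.86%, beside 5.35%, 5.81% and 6.79%. The median log2 ratios of this class were 0.18, 0.17 and 0.00. The -AS genes had medians of 0.17, 0.13 and 0.01. Conversely, of the 409 -AS genes 318 were annotated as antisense, 45 as lincRNA, 45 as processed transcript and 1 as sense intronic.

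Among the other pairs with both genes higher on day 9, these 3 were chosen after their values were seen. MME, the membrane peptidase neprilysin, had 9.69, 80.4, 119 and 144 FPKM, and MME-AS1 had 0.637, 2.26, 3.41 and 2.91 FPKM. KCNMA1, the large-conductance calcium-activated potassium channel, had 6.96, 41.6, 48.7 and 38.9 FPKM, and KCNMA1-AS1 had 0.329, 3.32, 3.31 and 1.71 FPKM. RGMB, a co-receptor of bone morphogenetic proteins, had 25.6, 62.6, 70.8 and 66.1 FPKM, and RGMB-AS1 had 4.08, 16.9, 19.3 and 15.9 FPKM.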
